A study of Mus musculus with 15 samples.

Results

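The genes described here are 10 regulators and markers of the epithelial-mesenchymal transition, taken by name from the 36528 genes counted in sorted tumour cells of a mouse model of basal cell carcinoma, a skin tumour in which the Hedgehog pathway is active. They are the transcription factors Snai1, Snai2, Twist1, Twist2, Zeb1 and Zeb2, the cell adhesion molecules Cdh1 (E-cadherin) and Cdh2 (N-cadherin), the intermediate filament gene Vim and the matrix gene Fn1. All 10 were found by Entrez identifier, and 8 of them had enough counts to be tested. Snai1 and Twist1 did not pass the filter on low counts.

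PolyA RNA was sequenced in 15 libraries: 4 labelled control, 8 at 6 days and 3 at 14 days of vismodegib, a drug that blocks the Hedgehog transducer SMO. Every group had the same genotype, which joined 4 elements: K14Cre-ER, an inducible Cre driven in basal keratinocytes, Ptch1fl/fl and p53fl/fl, conditional alleles of the Hedgehog receptor and of p53, and Lgr5GFP, a reporter of Lgr5. The controls thus carried every allele of the treated mice. The series' design text calls the control mice untreated. Age, the sort gate and whether replicate libraries stem from different animals are not in the labels, so the spread behind each p-value may be technical.

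In an epithelium, E-cadherin holds neighbouring cells together at adherens junctions and is linked to actin through catenins. Factors of the Snail, Zeb and Twist families are known to repress Cdh1 and to favour a mesenchymal state, in which cells express vimentin, fibronectin and N-cadherin, detach and move. Zeb factors and the miR-200 microRNAs repress each other, and Ovol, Grhl and Esrp factors hold the epithelial state. Basal keratinocytes and hair follicle progenitors are epithelial cells that express Snai2 without becoming mesenchymal.

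Total counts ran from 27336935 to 256569828 per library, and a count of 3, the floor used here for counting error, equalled 0.0120 to 0.105 CPM. Levels are CPM, with library totals scaled by edgeR's TMM factors. The submitters' sample identifiers fell into 3 runs of numbers, here ranges A, B and C. Control replicates 1 to 3 and 6-day replicates 1, 3, 4, 6 and 8 were in range A. Control replicate 4 and 6-day replicates 2, 5 and 7, with totals of at least 93183564, were in range B, and range C held every 14-day library and no other. The labels do not call these ranges batches. Range C and 14 days of treatment cannot be told apart. The 4 libraries of range B stood apart from the others in several of the 10 genes, and changes with them left out are given with the results of the genes tested. The share of all genes in which ranges A and B separate is not given here or below. Such a separation is therefore not read as particular to these genes.

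The libraries were keratinocytic by their markers. The summed level of 8 keratinocyte markers (Krt5, Krt14, Krt15, Krt17, Trp63, Itga6, Epcam and Col17a1) was 23184 to 48042 CPM, and none of the 8 was at 0 in any group. Summed fibroblast markers were 4.26 to 23.9 CPM over 8 genes, with Lum at 0 in every control and Dpt in every 6-day library. Summed endothelial markers were 2.12 to 6.69 CPM over 7 genes, with Emcn at 0 in every control and 6-day library and Cldn5 at 14 days. Summed lymphoid markers were at most 4.28 CPM over 6 genes. Summed myeloid markers were 24.3 to 36.9 CPM at 14 days against 1.69 to 14.3 CPM in the other groups. Of 5 mural and muscle markers, Cspg4 (200 to 765 CPM) and Mcam (11.3 to 137 CPM) made up nearly all of the sum, while the defining genes Rgs5 and Des reached at most 0.192 and 0.0225 CPM. The melanocyte markers are described beside Vim.

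At 14 days Cdh1 was about double its control and 6-day level. Snai2 was 1.69-fold higher at 14 days than in controls, a change that did not pass the test below. The other genes of the set were low or scattered at every time. In edgeR's quasi-likelihood test, with an adjusted p (Benjamini-Hochberg) under 0.05 as the threshold of a call, none of the 8 tested members was called at 6 days against control, where 1.26% of all 18751 tested genes were called. At an unadjusted p under 0.05 there were 2 at 6 days, Snai2 and Twist2, and DESeq2 and limma-voom each called 1 (Twist2 and Snai2), beside 4.51% and 4.41% of all genes. Counts at an unadjusted p are given here and below without the share of all genes at that threshold. Whether they exceed that share cannot be judged from them. At 14 days against control 1 member rose (Cdh1) and 1 fell (Twist2), beside 3.25% of all genes called higher and 3.35% called lower. Twist2 passed the filter on low counts only through libraries in which it was high, controls among them. At 14 days against 6 days 1 member rose (Cdh1), beside 2.14% called higher and 1.75% called lower. The comparisons at 14 and 6 days share control or 6-day libraries and are not independent of each other.

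**Figure D1:**
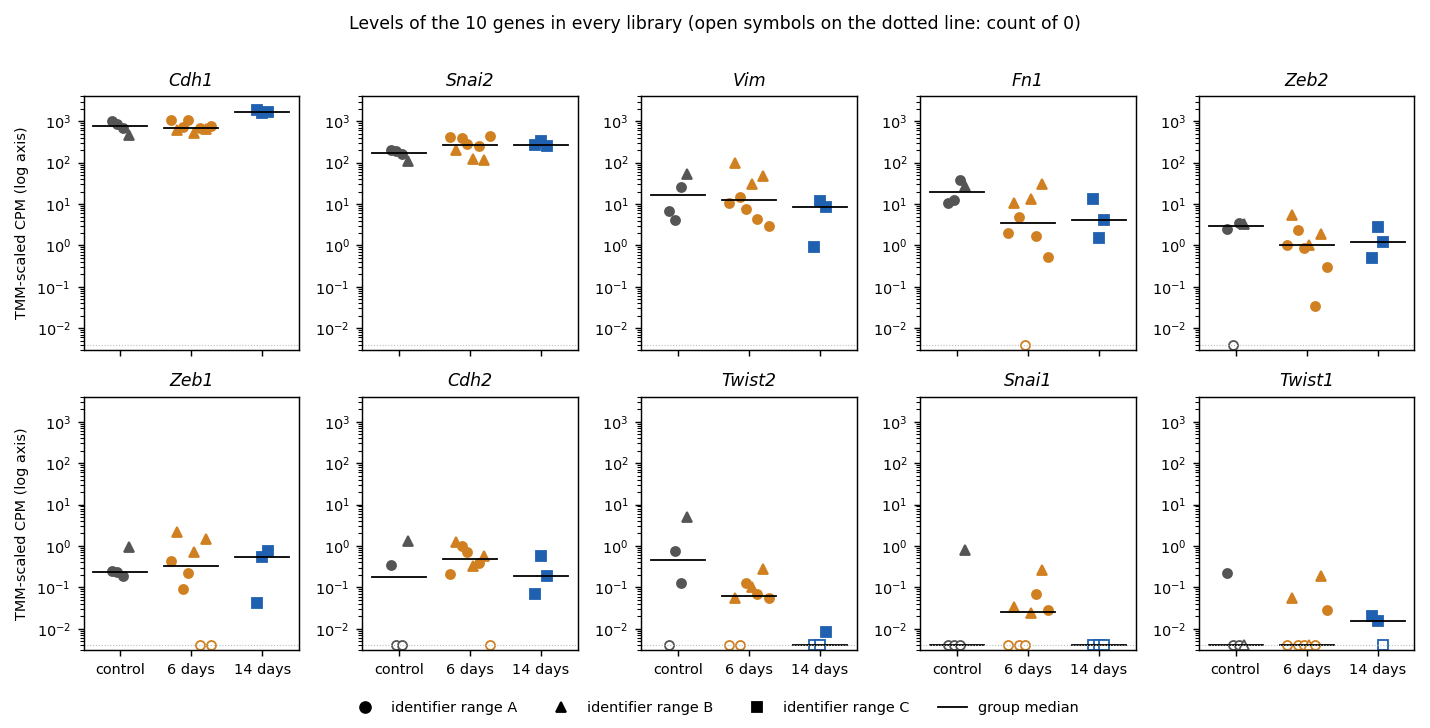
TMM-scaled CPM on a log axis for each of the 10 genes in the 15 libraries, grouped by treatment, with circles, triangles and squares for identifier ranges A, B and C, bars for group medians and open symbols for counts of 0. The 3 libraries at 14 days lie above all 12 others for Cdh1, while the triangles of range B lie above every circle for Vim.

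Cdh1 lies on chromosome 8 from 106603350 to 106670247 (GRCm38.p6). Its controls measured 1023, 839, 685 and 456 CPM. At 6 days the lowest, median and highest libraries were at 515, 700 and 1081 CPM, and the 3 libraries at 14 days were at 1891, 1558 and 1644 CPM. The control and 6-day libraries overlapped throughout, and every 14-day library was above every other library.

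The mean at 14 days was 1698 ± 173 CPM (SD, n = 3), against 751 ± 240 (n = 4) in controls and 762 ± 202 (n = 8) at 6 days. Cdh1 was 2.26-fold higher at 14 days than in controls (log2 fold change 1.18, SE 0.285, 95% interval 0.57 to 1.78, edgeR adjusted p = 0.0241). Against 6 days it was 2.23-fold higher (1.16, SE 0.242, interval 0.64 to 1.67, edgeR adjusted p = 0.0226). Groups without overlap were common at this time: 11.7% of all tested genes had every 14-day library above every control, and 5.42% had them above every 6-day library. At 6 days Cdh1 differed from control by 0.02 on the log2 scale (interval -0.47 to 0.51, edgeR adjusted p = 0.991).

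Within the earlier groups Cdh1 was lowest in range B, at 456 to 661 CPM against 672 to 1081 CPM in range A. With range B left out the 14-day change was 0.98 (edgeR adjusted p = 0.0227) against control and 0.996 (0.0224) against 6 days. The call against control was lost in 5 of 15 fits that each left out 1 library, those without control replicate 2 or 3 (edgeR adjusted p = 0.0507 and 0.0746) or without 14-day replicate 1, 2 or 3 (0.0964, 0.0537 and 0.0655), and in a fit of the 2 groups alone (0.0764). Over all 23 alternatives the change stayed between 0.98 and 1.37. The call against 6 days was lost only without 14-day replicate 1 (0.212) or 3 (0.0848), among 23 alternatives with changes of 0.94 to 1.26.

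**Figure D2:**
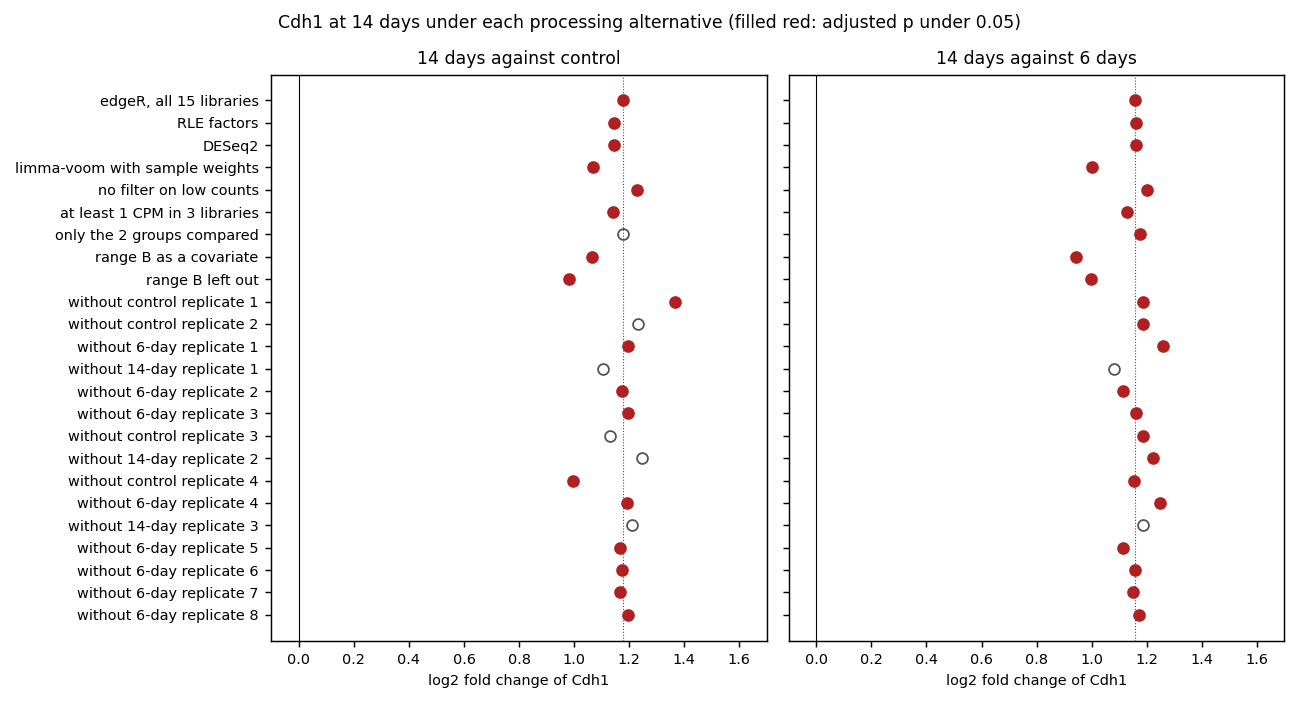
Log2 fold change of Cdh1 at 14 days against control (left) and against 6 days (right) under each processing alternative, with the value of the edgeR fit over 15 libraries as a dotted line and filled red symbols for an adjusted p under 0.05. Every symbol lies to the right of 0, between 0.94 and 1.37, and the open symbols mark the fits that lose the call.

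P-cadherin (Cdh3), the other classical cadherin of basal keratinocytes, was not called. It measured 357 ± 184 CPM in controls, 399 ± 127 at 6 days and 332 ± 63.3 at 14 days, with a 14-day change of -0.11 (SE 0.366, edgeR adjusted p = 0.897). Per gene length, the ratio of Cdh1 to Cdh3 in the deposited RPKM values had medians of 2.42 in controls (0.670 to 4.17), 1.84 at 6 days (0.941 to 3.38) and 4.47 at 14 days (3.63 to 6.50). The 3 libraries in which Cdh3 was above Cdh1 by RPKM were control replicate 4 and 6-day replicates 2 and 5, all of range B.

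Cdh2, the cadherin of mesenchymal and neural cells, was low. Its controls were at 0.352, 0, 0 and 1.32 CPM, its 6-day libraries at a lowest of 0, a median of 0.483 and a highest of 1.23 CPM, and its 14-day libraries at 0.0684, 0.567 and 0.185 CPM. The groups overlapped, and the changes were 0.38 (SE 1.16, edgeR adjusted p = 0.962) at 6 days and -0.65 (SE 1.45, 0.836) at 14 days. With range B left out the changes were 1.90 (edgeR adjusted p = 0.554) and 1.14 (0.674). The sign at 14 days was positive in 4 of 23 alternatives, among them the fit without control replicate 4. In RPKM, Cdh1 exceeded Cdh2 by a log2 ratio of at least 9.58 in each of the 12 libraries with more than 3 counts of Cdh2.

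A list of 10 tested cadherins and catenins held 2 other cadherins called higher at 14 days against control, beside 3.25% of all genes. Of the 10, DESeq2 called 4 and limma-voom 5 in either direction, in fits that called 14.7% and 22.4% of all genes. Cdh13 (T-cadherin, which is anchored to the membrane by a lipid) rose from 14.4 to 113 CPM in controls to 308 to 415 CPM (log2 fold change 2.74, SE 0.748, edgeR adjusted p = 0.0406). Cdh4 (R-cadherin) rose from at most 1.07 CPM to 1.54, 2.95 and 9.62 CPM (3.24, SE 0.910, edgeR adjusted p = 0.0458). The call of Cdh13 was lost without control replicate 2, 3 or 4, 6-day replicate 3, or 14-day replicate 1, 2 or 3 (edgeR adjusted p = 0.0523 to 0.126). That of Cdh4 was kept in 3 of 15 fits with 1 library left out, those without control replicate 4 or 6-day replicate 1 or 6. Both were lost in a fit of the 2 groups alone (0.0706 and 0.125), and Cdh4 also with no filter on low counts (0.0559). Of the catenins that bind E-cadherin's tail, Ctnnb1 changed by -0.70 (SE 0.254, edgeR adjusted p = 0.111) and Ctnnd1 by -0.02 (SE 0.388, 0.986) at 14 days.

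Snai2 (Slug) was the transcription factor of the set with high expression. It lies on chromosome 16 from 14705852 to 14709395, and its paralogue Snai1 (Snail) on chromosome 2 from 167538195 to 167542814. Because the 2 genes share stretches of their zinc finger region, the stretch of 90 coding bases in which they are most alike is shown, with the 12 differing bases in capitals. It spans coding bases 493 to 582 of Snai1 and 511 to 600 of Snai2 in the GENCODE M21 transcripts of GRCm38.
Snai1: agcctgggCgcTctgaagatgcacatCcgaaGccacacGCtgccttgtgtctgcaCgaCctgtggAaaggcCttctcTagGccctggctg
Snai2: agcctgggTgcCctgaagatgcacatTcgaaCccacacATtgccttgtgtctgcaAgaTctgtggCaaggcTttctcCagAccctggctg
The stretches were 86.7% identical, and the longest run without a difference in them was 15 bases. Over the 2 whole transcripts the longest shared run was 23 bases. The read length is not given in the sources used here, and reads that aligned to more than 1 place were not counted, per the file headers.

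Snai2 measured 207, 188, 160 and 112 CPM in controls. The lowest, median and highest libraries at 6 days were at 118, 262 and 448 CPM, and the 14-day libraries were at 263, 337 and 248 CPM. Of the 8 libraries at 6 days 5 were above every control, all 5 of range A, while the 3 of range B (203, 126 and 118 CPM) lay among the controls. All 3 libraries at 14 days were above every control, as in 11.7% of all tested genes.

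The mean of Snai2 was 167 ± 41.1 CPM in controls, 281 ± 131 at 6 days and 283 ± 47.3 at 14 days. The change was 0.75 at 6 days (SE 0.348, 95% interval 0.01 to 1.49, edgeR adjusted p = 0.389) and 0.76 at 14 days (SE 0.417, interval -0.13 to 1.65, edgeR adjusted p = 0.292), and neither passed the test. Compared within ranges, the 6-day libraries were above the controls in range A (248 to 448 against 160 to 207 CPM) and in range B (118 to 203 against 112 CPM in its 1 control). Such a separation held for 6.09% of all tested genes in range A and for 36.1% in range B. With range B as a covariate the 6-day change was 0.79 and passed the test (edgeR adjusted p = 0.0424), in a fit that called 4.62% of all genes, and limma-voom with sample weights gave 0.92 (adjusted p = 0.0468). Range A alone gave 0.95 (edgeR adjusted p = 0.0677). With range B left out the changes were 0.93 (0.0581) at 6 days and 0.59 (0.139) at 14 days. The difference between 14 and 6 days was 0.01 (interval -0.78 to 0.80, edgeR adjusted p = 0.990).

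Snai1 had 0 counts in 9 of 15 libraries. Its controls were at 0, 0, 0 and 0.817 CPM, the last from 73 counts in control replicate 4. At 6 days the median was 0.0258 CPM and the highest library, replicate 7, was at 0.256 CPM from 60 counts, and all 3 libraries at 14 days had 0 counts, which allows up to 0.0205, 0.0233 and 0.0252 CPM. No other library exceeded 6 counts of Snai1, and both of these libraries belong to range B.

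By RPKM, which divides by gene length, Cdh1 was the most abundant member and Snai2 next in 13 of 15 libraries. In 6-day replicates 3 and 8 Snai2 was above Cdh1. The level of Snai2 was 70.4 ± 17.3 RPKM in controls, 115 ± 54.1 at 6 days and 117 ± 18.7 at 14 days, against 145 ± 46.6, 143 ± 38.2 and 320 ± 34.5 RPKM for Cdh1. The ranges of Snai2 and Cdh1 did not overlap at 14 days (103 to 138 against 291 to 358 RPKM), touched in controls (47.8 to 88.2 against 88.3 to 199 RPKM) and overlapped at 6 days (47.6 to 184 against 95.8 to 202 RPKM). Vim came next in 14 libraries and Fn1 in 14-day replicate 1. The ranges of Vim (0.409 to 44.9 RPKM) and Fn1 (0 to 3.92 RPKM) overlapped over all libraries, as did that of Twist2 (0 to 3.27 RPKM). Zeb1, Zeb2, Cdh2, Snai1 and Twist1 stayed under 1 RPKM in every library.

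Zeb1 and Zeb2, 2 large zinc finger and homeodomain repressors of Cdh1, were low and passed the test in none of the 3 comparisons (edgeR). The microRNAs that are known to bind their transcripts are shown to make the regulatory loop concrete, with the seed (bases 2 to 8) in capitals (mature sequences from RefSeq, GRCm38.p6). miR-200b, miR-200c and miR-429 have the first seed, miR-200a and miR-141 the second, and miR-205, a microRNA of basal keratinocytes, has another.
mmu-miR-200b-3p: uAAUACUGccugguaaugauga
mmu-miR-200c-3p: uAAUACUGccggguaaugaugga
mmu-miR-200a-3p: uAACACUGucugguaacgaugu
mmu-miR-141-3p: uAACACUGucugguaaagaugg
mmu-miR-205-5p: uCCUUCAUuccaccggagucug
The complement of each seed was searched on the transcript strand of the 3′ untranslated regions of GENCODE M21. CAGTATT (first seed) occurred 5 times in Zeb1 and 5 times in Zeb2, and CAGTGTT (second seed) 4 times in each. At least 1 CAGTATT was present in 24.4% of genes with untranslated regions of like length to that of Zeb1 and in 38.5% for Zeb2, and CAGTGTT in 31.4% and 50.9%. As many CAGTATT matches occurred in 0.0351% and 0.276% of them, and as many CAGTGTT matches in 0.176% and 1.75%. All these shares include Zeb1 or Zeb2 itself, and the share of 0.0351% is Zeb1 alone among 2848 genes. ATGAAGG (miR-205) occurred 1 time in Zeb1 and 0 times in Zeb2, against shares of 19.0% and 33.9%. A match is a description of the sequence and does not show binding.

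PolyA counts do not measure mature microRNAs. The host transcript of miR-205, Mir205hg, chosen after its values were seen, measured 64.3 ± 34.9 CPM in controls, 111 ± 57.2 at 6 days and 81.5 ± 43.1 at 14 days, and it passed the test in none of the 3 comparisons (edgeR adjusted p = 0.607, 0.784 and 0.675).

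Zeb2 measured 2.44, 0, 3.47 and 3.37 CPM in controls. At 6 days its lowest, median and highest libraries were at 0.0350, 1.03 and 5.29 CPM, and the 14-day libraries were at 0.499, 2.78 and 1.23 CPM. The 3 groups overlapped, and the highest library was 6-day replicate 2. Changes were -0.52 (SE 0.997, edgeR adjusted p = 0.932) at 6 days and -0.63 (SE 1.28, 0.818) at 14 days, and the sign was the other way in 1 of 25 and 1 of 23 alternatives. With range B left out they were -1.09 (edgeR adjusted p = 0.700) and -0.41 (0.877).

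Zeb1 was lower than Zeb2 per length in every library but control replicate 2, and measured 0.244, 0.238, 0.187 and 0.940 CPM in controls. The lowest, median and highest libraries at 6 days were at 0, 0.328 and 2.19 CPM, and at 14 days the libraries were at 0.0410, 0.543 and 0.766 CPM. The 4 libraries of range B (0.705 to 2.19 CPM) lay above all 8 of range A (at most 0.428 CPM), a separation for which the share of all genes is not given. The changes were 0.67 (SE 1.18, edgeR adjusted p = 0.928) at 6 days and 0.14 (SE 1.43, 0.968) at 14 days, and their sign turned in 3 of 23 and 5 of 22 alternatives. With range B left out they were -0.60 (edgeR adjusted p = 0.852) and 0.98 (0.664). Non-coding genes that overlap Zeb1 (Gm10125) and Zeb2 (Zeb2os and Mir5129) reached at most 0.163 CPM, and the strand handling of the counts is not given in the sources used here.

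Twist2 was the tested member called lower, and its call rests on few counts and on the filter described below. Twist1 and Twist2 are basic helix-loop-helix factors known from mesoderm and dermis, and their coding sequences are close. The 90 bases in which they are most alike are shown, with the 8 differing bases in capitals (coding bases 349 to 438 of Twist1 and 211 to 300 of Twist2, GENCODE M21, GRCm38).
Twist1: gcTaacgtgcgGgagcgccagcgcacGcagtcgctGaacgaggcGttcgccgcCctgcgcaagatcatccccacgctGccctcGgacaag
Twist2: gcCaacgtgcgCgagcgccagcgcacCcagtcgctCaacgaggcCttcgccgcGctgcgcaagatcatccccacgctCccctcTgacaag
The stretches were 91.1% identical with a longest shared run of 23 bases, also the longest run shared by the 2 whole transcripts. Whether reads were counted for the wrong gene of the pair was not tested, and control replicate 4 had 449 counts of Twist2 and 0 of Twist1.

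Twist2, on chromosome 1 from 91801461 to 91848034, had 0, 26, 4 and 449 counts in controls, or 0, 0.772, 0.125 and 5.02 CPM. At 6 days the lowest, median and highest libraries were at 0, 0.0632 and 0.273 CPM. At 14 days there were 0, 0 and 1 counts, the last equal to 0.00841 CPM. Control replicate 1 was at 0, so the groups overlapped, and 449 of 479 control counts came from control replicate 4.

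The fall at 14 days against control was called (edgeR adjusted p = 0.0320). The fitted log2 fold change of -8.53 (SE 2.19) depends on how counts of 0 are treated. The ratio of summed counts per effective total, control over 14 days, was 983 with a 95% counting interval of 176 to 38899, and 115 (19.2 to 4700) without control replicate 4. These intervals treat reads as independent and leave out the spread between libraries, so they do not measure how secure the fall was. Of the 30 counts in control replicates 1 to 3, 26 came from replicate 2. The call was lost without 14-day replicate 1, 2 or 3 (edgeR adjusted p = 0.141, 0.109 and 0.0957) and in a fit of the 2 groups alone (0.108). Without control replicate 2, control replicate 4, 6-day replicate 7 or all of range B the gene no longer passed the filter and had no test. Its entry to the test thus rested on libraries in which it was high, controls among them, and the filter was not neutral to direction. At 6 days the change was -4.01 (SE 1.15, edgeR adjusted p = 0.115), and it was called without control replicate 1 (0.0476) and by DESeq2 (0.0384). DESeq2 also called the difference between 14 and 6 days (adjusted p = 0.0482), in a fit that called 13.9% of all genes, where edgeR gave -4.52 (adjusted p = 0.164).

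Twist1 had 8 counts in control replicate 1 (0.217 CPM) and 0 in the other 3 controls. At 6 days 5 of 8 libraries had 0 counts and the highest, replicate 7, had 44 counts (0.188 CPM). At 14 days there were 3, 2 and 0 counts. Twist1 was at or under the floor in all but 3 libraries, and no difference was detectable at this depth.

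**Figure D3:**
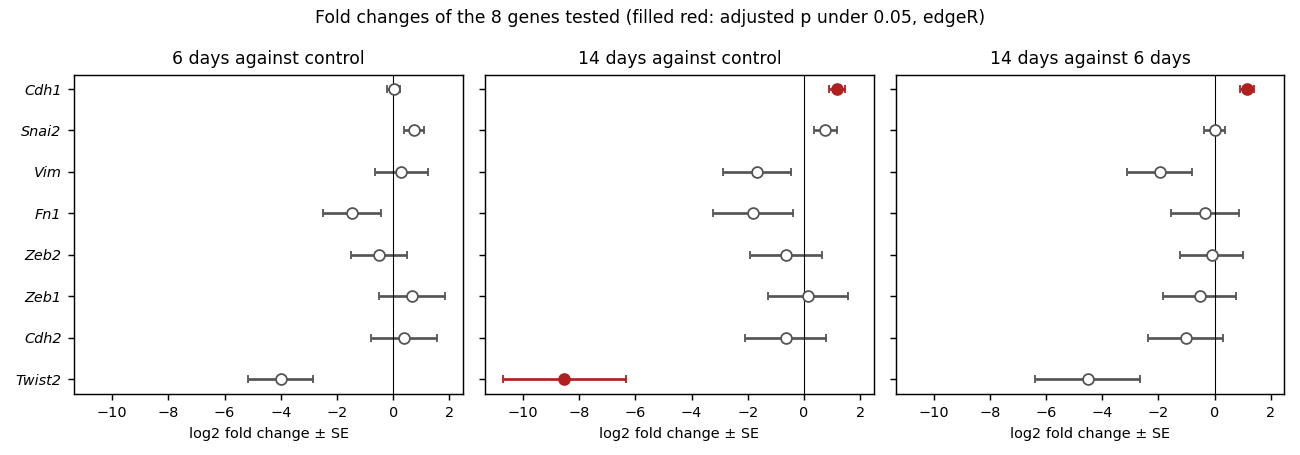
Log2 fold change ± SE of the 8 tested genes in each of the 3 comparisons, with filled red symbols for an edgeR adjusted p under 0.05. Cdh1 has the shortest error bars and is called in both comparisons of 14 days, and Twist2 has the longest in the comparison of 14 days with control.

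Vim encodes vimentin, the intermediate filament protein of mesenchymal cells, melanocytes and leukocytes, and lies on chromosome 2 from 13574311 to 13582826. Its controls measured 6.69, 4.10, 25.8 and 52.6 CPM. The lowest, median and highest libraries at 6 days were at 2.99, 12.7 and 98.7 CPM, and the 14-day libraries were at 0.896, 11.6 and 8.57 CPM. The groups overlapped, and the spread within the control and 6-day groups was wider than the differences between group means. The 4 libraries of range B held the highest values, 30.7 to 98.7 CPM, against 2.99 to 25.8 CPM in range A and 0.896 to 11.6 CPM in range C.

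The mean of Vim was 22.3 ± 22.4 CPM in controls, 27.3 ± 32.7 at 6 days and 7.01 ± 5.51 at 14 days. Its change was 0.29 at 6 days (SE 0.930, 95% interval -1.69 to 2.27, edgeR adjusted p = 0.964) and -1.67 at 14 days (SE 1.21, interval -4.24 to 0.90, 0.436). The sign at 6 days turned in 6 of 25 alternatives, among them the fit with range B left out (-0.60, edgeR adjusted p = 0.755). Against 6 days the 14-day difference was -1.96 (SE 1.14, edgeR adjusted p = 0.321), and with range B left out it was -0.21 (0.900). The 14-day change against control without range B was -0.82 (edgeR adjusted p = 0.591). In RPKM, Cdh1 exceeded Vim in every library, with median ratios of 37.3 in controls (3.60 to 85.0), 31.7 at 6 days (2.61 to 107) and 79.7 at 14 days (56.0 to 877).

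Markers of melanocytes, pigment cells of neural crest origin that express Vim and Zeb2, broadly moved with both genes from library to library. The summed level of 6 such markers (Mlana, Pmel, Tyr, Dct, Tyrp1 and Sox10, the last also a factor of Schwann cells), none of them at 0 in any group, was 145, 34.6, 679 and 411 CPM in controls. It was 51.8 to 862 CPM with a median of 259 at 6 days, and 47.5, 363 and 269 CPM at 14 days. Neither edgeR, DESeq2 nor limma-voom called any of the 6 in the 3 comparisons, and 0 had an unadjusted p under 0.05 by edgeR. All 6 had negative changes at 14 days against control (median -0.85, all genes -0.02). The 6-day library with the highest sum, replicate 2, was the highest library of all for Vim and for Zeb2, and the control library with the lowest sum, replicate 2, had 4.10 CPM of Vim and no count of Zeb2. Vim did not keep the order of the sums throughout. Control replicate 3 (sum 679 CPM) had 25.8 CPM of Vim, and control replicate 4 (411 CPM) had 52.6 CPM. At 6 days replicate 3 (464 CPM) had 15.1 CPM of Vim, and replicate 5 (311 CPM) had 30.7 CPM. Fewer cells of a type and less RNA per cell cannot be told apart in bulk samples, and the part of these markers in the levels of Vim and Zeb2 was not tested.

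**Figure D4:**
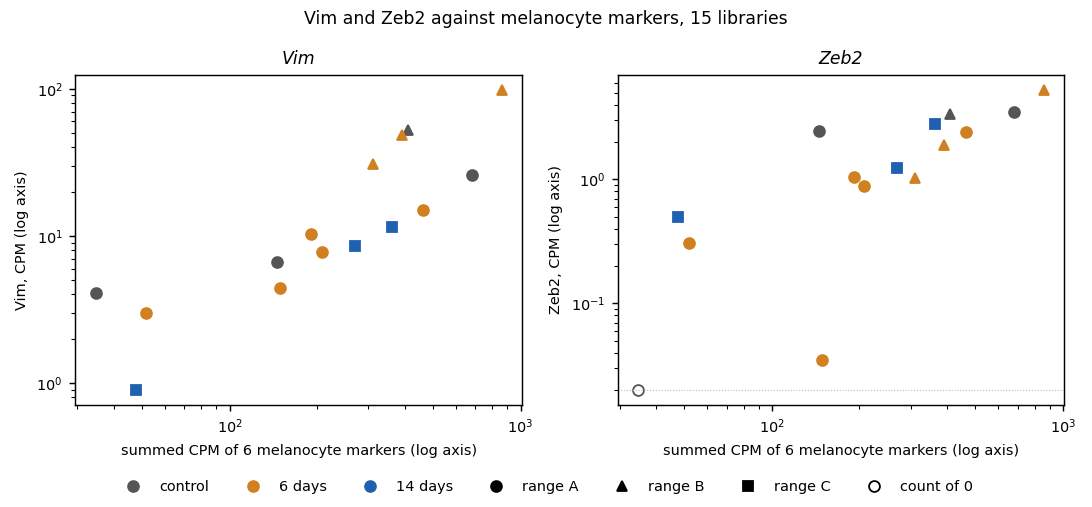
CPM of Vim (left) and Zeb2 (right) against the summed CPM of 6 melanocyte markers in the 15 libraries, all on log axes, coloured by treatment and shaped by identifier range. Libraries of all 3 groups spread from lower left to upper right in both panels, and the triangles of range B lie above the circles and squares of like marker sum for Vim and among them for Zeb2.

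Among 12854 genes with a symbol and a mean of at least 1 CPM, the 3 whose log2(CPM + 1) was most alike to that of Vim over the 15 libraries were Car14 (Pearson r = 0.94), Sox10 (0.93) and Dclk2 (0.92). Over the 8 libraries of range A the same 3 had r of 0.86, 0.90 and 0.90. For Zeb2 they were Igsf11 (0.94, range A 0.99), C4b (0.88, 0.84) and Gjc3 (0.88, 0.88). These values describe libraries that also differ in range and depth.

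For Fn1 the genes most alike were Itgb7 (r = 0.91), Slc16a11 (0.88) and Fscn1 (0.88). For Cdh1 they were Mbnl3 (0.96), Exoc3 (0.94) and Pknox1 (0.93), of which Exoc3 alone stayed above 0.90 in range A (0.92, against 0.63 and 0.62). For Snai2 they were Mpv17 (0.95), Cd47 (0.94) and Dnaaf2 (0.94), with r of 0.89 to 0.94 in range A. For the low genes Twist2 (Crybb3, Trim63 and Zfyve28, 0.91 to 0.92), Zeb1 (Ptprj, Setd3 and Ubqln2, 0.87 to 0.88) and Cdh2 (Mapt, Kcna2 and Slc25a47, 0.81 to 0.85) the likeness was weaker within range A, from -0.07 to 0.78.

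Fn1 encodes fibronectin, an extracellular matrix protein bound by integrins, and lies on chromosome 1 from 71585473 to 71653280. Its controls measured 10.3, 12.4, 38.9 and 27.7 CPM. At 6 days the lowest, median and highest libraries were at 0, 3.47 and 31.3 CPM, and the 14-day libraries were at 13.5, 1.49 and 4.16 CPM. Of the 6-day libraries 5 of 8 were below every control, as were 2 of 3 at 14 days, and the groups overlapped.

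The mean of Fn1 was 22.3 ± 13.5 CPM in controls, 8.00 ± 10.6 at 6 days and 6.37 ± 6.29 at 14 days. The change was -1.47 at 6 days (SE 1.04, 95% interval -3.69 to 0.75, edgeR adjusted p = 0.668) and -1.81 at 14 days (SE 1.43, interval -4.85 to 1.23, 0.482), and neither passed the test. Within range A all 5 libraries at 6 days (0 to 4.95 CPM) were below all 3 controls (10.3 to 38.9 CPM), as 6.56% of tested genes were, with a change of -3.50 (edgeR adjusted p = 0.114). In range B the 6-day libraries (10.6 to 31.3 CPM) spanned the control (27.7 CPM). Over 25 alternatives the 6-day change was always negative, from -3.66 to -0.60, with adjusted p from 0.0931 to 0.905 and no call. With range B left out the changes were -3.51 (edgeR adjusted p = 0.114) and -1.69 (0.395).

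Fibroblast markers, like Fn1, were higher in range B than in range A among the 6-day libraries, while among the controls the library with the highest sum, replicate 1, was the lowest for Fn1. Their summed level was 22.3, 8.91, 14.6 and 16.0 CPM in controls and 9.94, 5.36 and 7.60 CPM at 14 days. At 6 days it was 4.26 to 9.76 CPM in range A and 12.8 to 23.9 CPM in range B. Of the 8 markers 6 were tested and none was called by edgeR in the 3 comparisons, with median changes of -0.66 at 6 days (all genes 0.03) and -1.80 at 14 days (all genes -0.02). At an unadjusted p under 0.05 there were 1 and 2 of them. DESeq2 called 0 and 2, beside 4.51% and 14.7% of all genes. The part of these markers in the level of Fn1 was not tested.

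Of 8 fibronectin receptor genes, all tested, edgeR called 1 at 6 days against control, beside 1.26% of all genes, and none in the 2 comparisons of 14 days. At 14 days against control DESeq2 called 1 and limma-voom 2 of the 8, in fits that called 14.7% and 22.4% of all genes. At an unadjusted p under 0.05 by edgeR there were 2, Itgav (0.76, edgeR adjusted p = 0.0517) and Itgb3 (-1.81, 0.200). Itgb6, a subunit of an epithelial integrin that binds fibronectin and activates latent TGF-beta, fell at 6 days from 64.5, 55.7, 76.2 and 13.5 CPM in controls to 4.19 to 18.6 CPM (log2 fold change -2.21, SE 0.475, edgeR adjusted p = 0.0368). Control replicate 4, the only control of range B, lay among the 6-day libraries, and within range B the change was -0.10 (edgeR adjusted p = 0.896). The call was kept in 6 of 15 fits that each left out 1 library and was lost without control replicate 1, 2 or 3, 6-day replicate 1, 2, 3, 4 or 5, or 14-day replicate 3. The receptor subunits Itga5 and Itgb1 changed by -0.20 (SE 0.252, edgeR adjusted p = 0.873) and -0.26 (SE 0.192, 0.690) at 6 days.

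Other genes of the transition were read from lists chosen with earlier results of these data known. Of 16 further transcription factors and modulators, 12 were tested. Sox4, a factor known to promote the transition, was the one called by edgeR, beside 3.35% of all genes called lower at 14 days against control. DESeq2 called 2 and limma-voom 4 of the 12 in that comparison, in fits that called 14.7% and 22.4% of all genes. By edgeR 6 of the 12 changes were positive and 6 negative there, and 9 were positive and 3 negative at 6 days. Sox4 fell at 14 days from 313 to 417 CPM in controls to 84.2, 74.7 and 125 CPM (3.71-fold lower, log2 fold change -1.89, SE 0.452, edgeR adjusted p = 0.0227). Every library at 6 days (70.7 to 297 CPM) and at 14 days lay below every control, a separation seen in 1.47% of tested genes at 6 days and 11.7% at 14 days. The 6-day change was -0.99 (SE 0.331, edgeR adjusted p = 0.184). The 14-day call was kept in 11 of 15 fits that each left out 1 library and lost without control replicate 2 (0.0510) or 14-day replicate 1, 2 or 3 (0.109, 0.0919 and 0.0527). Prrx1, a factor of mesenchymal cells, had 0 counts at 14 days and at most 0.623 CPM in any library, and was not tested.

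Among epithelial transcription and splicing factors, Grhl2 measured 226 ± 69.6, 249 ± 41.3 and 243 ± 21.1 CPM in controls, at 6 and at 14 days, and the splicing regulators Esrp1 (256 ± 75.3, 249 ± 85.7 and 274 ± 58.2 CPM) and Esrp2 (204 ± 35.2, 203 ± 26.5 and 253 ± 124 CPM) were at like levels. Of 13 tested members of this list none was called at 14 days against control by edgeR, 2 had an unadjusted p under 0.05, and DESeq2 and limma-voom called 1 and 3, in fits that called 14.7% and 22.4% of all genes. All 13 had positive changes at 14 days with TMM and with RLE scaling, with a median of 0.69 against -0.02 over all genes, and 12 of 13 were positive with range B left out (median 0.62). The share of all genes with a positive change is not given. The members differed in size: Trp63, the master factor of stratified epithelia, changed by 0.75 (SE 0.242, edgeR adjusted p = 0.0774), Ovol1 by 1.38 (SE 0.930, 0.397) and Ovol2 by 0.05 (SE 0.382, 0.959). The 14-day libraries of Ovol1 ran from 5.45 to 95.3 CPM and overlapped the controls (3.51 to 47.1 CPM). Those of Trp63 were all above every control, as in 11.7% of all tested genes.

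Of 25 epithelial junction and polarity genes, all tested, 2 rose at 14 days against control and none fell, beside 3.25% of all genes called higher and 3.35% called lower. Of the 25 changes 14 were positive and 11 negative, and their median of 0.25 compared with -0.02 over all genes. DESeq2 called 4 and limma-voom 9 in either direction, beside 14.7% and 22.4% of all genes. Tjp3 (ZO-3, a tight junction scaffold) rose from 3.92 to 10.8 CPM in controls to 67.1, 13.9 and 24.5 CPM (2.53, SE 0.509, edgeR adjusted p = 0.0106), and the desmosomal plakophilin Pkp3 rose from 599 to 812 CPM to 1667, 1293 and 1214 CPM (0.98, SE 0.195, edgeR adjusted p = 0.0104). Both were kept in 14 of 15 fits that each left out 1 library and lost without 14-day replicate 1 (0.0802 and 0.0556) and in a fit of the 2 groups alone (0.0704 and 0.0600). Tjp3 also rose against 6 days (2.04, SE 0.412, edgeR adjusted p = 0.0197), a call lost without 14-day replicate 1 (0.339) or 3 (0.0611). Jup (plakoglobin) rose against 6 days (0.89, SE 0.233, edgeR adjusted p = 0.0476). That call was kept in 3 of 15 such fits, those without control replicate 1 or 4 or 14-day replicate 2, and without 14-day replicate 1 the change was 0.47 (0.483). It was also lost with no filter on low counts (0.0587) and with range B left out (0.0986). F11r (junctional adhesion molecule A), chosen after its values were seen, was lower in every 14-day library (143 to 242 CPM) than in every control (295 to 384 CPM) and did not pass the test (-0.81, SE 0.272, edgeR adjusted p = 0.0860). Such a separation downwards held for 11.7% of all tested genes. Epcam, an epithelial adhesion molecule, changed by -0.36 (SE 0.294, edgeR adjusted p = 0.505) at 14 days.

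Of 22 tested matrix and motility genes of the mesenchymal state, 1 fell at 6 days and at 14 days against control, and 1 rose at 14 against 6 days. Over all genes 1.26% were called in either direction at 6 days, 3.35% lower at 14 days and 2.14% higher at 14 against 6 days. Of the 22, DESeq2 called 3 at 6 and 2 at 14 days against control, and limma-voom 2 and 7, beside 4.51% and 14.7%, and 4.41% and 22.4%, of all genes. Mmp14, a membrane-bound metalloproteinase that degrades collagen, fell from 219 to 295 CPM in controls to 97.9 to 176 CPM at 6 days (-1.04, SE 0.187, edgeR adjusted p = 0.0164) and to 159, 76.6 and 103 CPM at 14 days (-1.24, SE 0.248, 0.0106). No treated library reached a control, a separation seen in 1.47% of tested genes at 6 days and 11.7% at 14 days. The 6-day call was lost without control replicate 2 (0.0686), with range B left out (-1.01, 0.0585) and in range B alone (-1.21, 0.0536), and the 14-day call without 14-day replicate 2 (0.0506) or 3 (0.0550) and in a fit of the 2 groups alone (0.0621). Tgfbi, a secreted protein induced by TGF-beta, rose at 14 against 6 days (0.87, SE 0.227, edgeR adjusted p = 0.0454), a call kept in 4 of 15 fits that each left out 1 library, those without control replicate 1, 2 or 4 or 14-day replicate 2. It was also lost with no filter on low counts (0.0522) and with range B left out (0.0529).

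At an unadjusted p under 0.05, 5 of the 22 were higher and 2 lower at 6 days, and 5 higher and 4 lower at 14 days, Mmp14 and Tgfbi included. The share of all genes at this threshold is not given, so whether these counts exceed it cannot be judged. Of the uncalled ones, S100a4 and Mmp2, named after their values were seen, were higher at both times. S100a4, a calcium-binding protein, measured 2.59 to 5.72 CPM in controls, 4.66 to 26.6 at 6 days and 3.56 to 18.6 at 14 days (1.94 and 1.40, edgeR adjusted p = 0.110 and 0.184). Mmp2, a gelatinase, measured 38.3 to 103, 61.8 to 251 and 117 to 174 CPM (0.91 and 1.02, edgeR adjusted p = 0.230 and 0.136). Postn, Axl and Thbs1 changed by 0.86, 0.54 and 1.26 at 6 days (edgeR adjusted p = 0.285, 0.346 and 0.307). Acta2 and Cdh11, genes of activated mesenchymal cells, did not pass the test either. Acta2 measured 3.79 to 20.2 CPM in controls, 0.948 to 7.28 at 6 days and 0.939 to 4.48 at 14 days (edgeR adjusted p = 0.157 and 0.170). Cdh11 measured 9.01 ± 6.83, 11.2 ± 8.35 and 4.31 ± 4.03 CPM (0.945 and 0.513). Of 5 tested filament genes related to Vim, edgeR called none in the 3 comparisons, 2 had an unadjusted p under 0.05 at 14 days against control, and DESeq2 and limma-voom called 1 and 3 there, beside 14.7% and 22.4% of all genes.

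**Figure D5:**
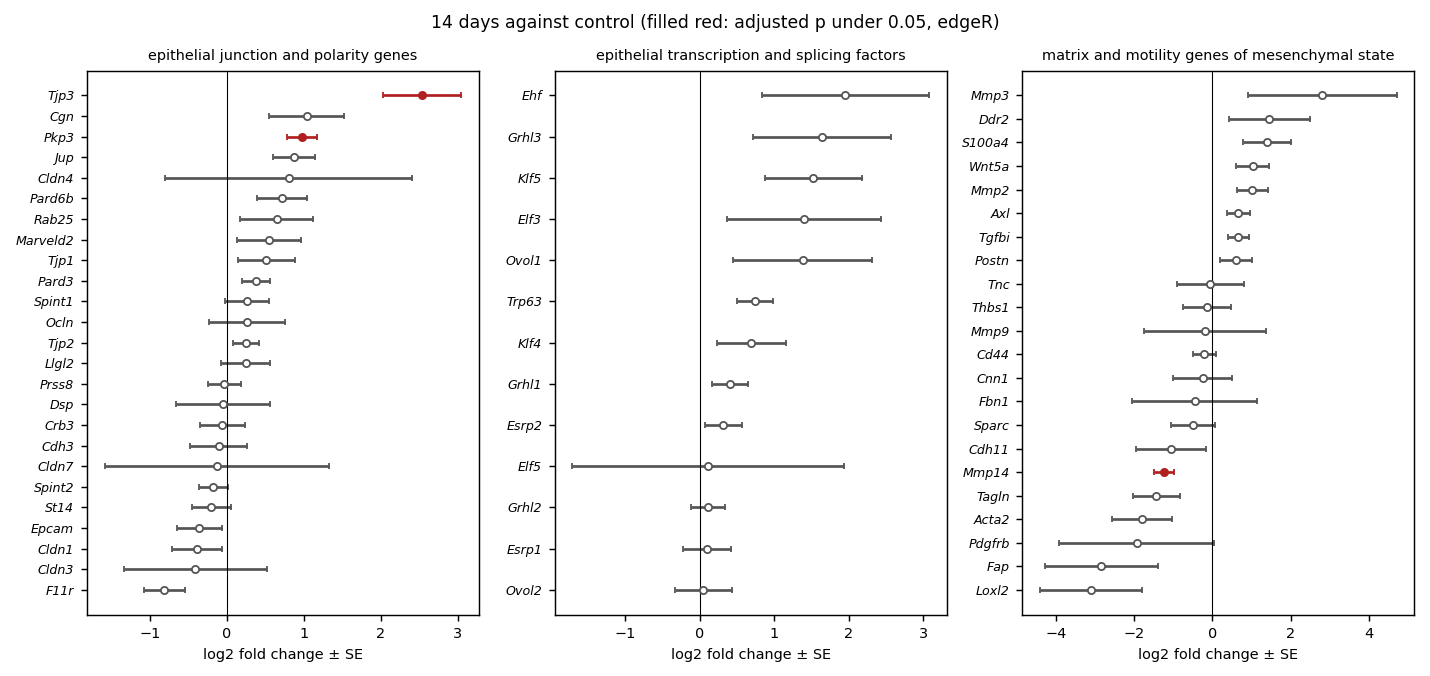
Log2 fold change ± SE at 14 days against control for 25 junction and polarity genes, 13 epithelial transcription and splicing factors and 22 matrix and motility genes, sorted by size within each list, with filled red symbols for an edgeR adjusted p under 0.05. All 13 epithelial factors lie to the right of 0 and none is red, and the red symbols are Tjp3, Pkp3 and Mmp14.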

How the data were processed

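The authors deposited, for each library, a table of counts and of RPKM values per gene. The counts in the deposited tables are uniquely aligned reads per gene, per the file headers, and the deposited RPKM values are these counts divided by gene length and a library size factor. Per the submitters' processing notes, GSNAP and GRCm38 were used. Their versions, the annotation and the strand handling are not stated in the sources used here.

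Of 36528 genes, 31049 Entrez identifiers matched a RefSeq table (GRCm38.p6), and 5479 without a match held 1.24 to 1.59% of counts. Among 105 pairs of libraries the lowest chi-square was 56.8 per degree of freedom, so no pair agreed within sampling noise. Floors and counting intervals cover counting error only, since PCR duplicates are not marked.

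Counts were tested with edgeR 4.0.16 (TMM, filterByExpr, quasi-likelihood F test) in 1 fit of 15 libraries with no covariate, on 18751 genes with 12 residual degrees of freedom and a common biological coefficient of variation of 0.579. A called gene has a Benjamini-Hochberg adjusted p under 0.05. RPKM served only to compare genes. The 10 genes, the lists, the rule for named genes (all 10 members, called list members, 16 fixed names, and the 3 genes most alike to each member) and the settings were chosen with earlier results of these data known. Of the fixed names 1, and of the listed markers 2, are not reported here. Leaving out range B was added after the data were seen. Alternatives were RLE factors, DESeq2 1.42.0, limma-voom 3.58.1 (sample weights), a stricter filter and none, the 2 groups alone, ranges, and each library left out. Where a group was left with few libraries, the spread was pooled over all groups.

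On simulated data for 18751 genes, edgeR recovered 24 of 100 genes changed 2-fold and 69 of 100 changed 4-fold for 6 days against control, with 7 false among 100 calls. For 14 days it recovered 6 and 44, with 1 false among 51 calls. DESeq2 made 61 false among 187 calls and 60 among 164. Python 3.11.15, scipy 1.17.1 and R 4.3.3 were used.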

Additional observations from a re-analysis of the deposited data

Results flagged for a closer look

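Of 20 groups of 4 or 8 libraries in which the 10 genes were checked, 10 had 1 library far from the others. The nominal chance rate of about 1 in 20 does not apply to groups in which most counts are 0. The same libraries also recur over genes, so the count is a description only. In control replicate 4 this was the case for Snai1 (0.817 CPM), Twist2 (5.02 CPM) and Zeb1 (0.940 CPM), and in control replicate 1 for Twist1 (0.217 CPM). In 6-day replicate 7 it was the case for Snai1 (0.256 CPM), Twist1 (0.188 CPM), Twist2 (0.273 CPM) and Fn1 (31.3 CPM). In 6-day replicate 2 it was the case for Zeb2 (5.29 CPM) and Vim (98.7 CPM). Every one of these libraries except control replicate 1 belongs to range B, and each stood out upwards.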

How the results depend on the processing

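Of 546 alternative values for the 8 tested members, 529 kept their side of the threshold, 12 lost a call (10 of them with 1 library left out), 5 gained one and none that was called turned its direction. The counts over all genes moved more. At 6 days against control 236 genes were called by edgeR, against 846 by DESeq2, 826 by limma-voom, 866 with range B as a covariate, 468 in range A alone and 465 with range B left out, and 69 to 308 with 1 library left out. At 14 days against control the count was 1238, against 2752, 4205, 3196 with the covariate, 2330 with range B left out and 374 in the 2 groups alone, and 376 to 1438 with 1 library left out. At 14 against 6 days it was 730, against 2609, 4693, 2036, 1322 with range B left out and 460 with no filter, and 3 (without 14-day replicate 1) to 1138 (without control replicate 4) with 1 library left out, with 43 without 14-day replicate 3. The count of members called was 0 at 6 days, and 1 with DESeq2, limma-voom and the covariate, and 0 to 1 with 1 library left out. It was 2 at 14 days against control, and 1 with a filter of at least 1 CPM in 3 libraries or range B left out, 0 in the 2 groups alone, and 0 to 2 with 1 library left out. At 14 against 6 days it was 1, and 2 with DESeq2 and 0 to 1 with 1 library left out. The cause was not tested. No paired analysis was possible because the labels carry no replicate numbers. Counts were 0 in at least 2 libraries for Snai1, Twist1, Twist2, Cdh2 and Zeb1 and in 1 library for Zeb2 and Fn1, where a level under the floor of 3 counts was not detectable at this depth.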
